A study of Mus musculus with 8 samples.

Results

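Lipogenic enzymes and adipocyte marker genes were followed in the kidney cortex of mice given a normal or a high phosphate (Pi) diet. They were picked by gene symbol and number 10 of the 17457 genes listed for each library. Of these, 6 belong to lipogenesis (Thrsp, Mlxipl, Acly, Acaca, Fasn and Elovl6) and 4 are markers of fat cells (Fabp4, Adipoq, Cfd and Plin1). They were chosen because earlier results from these same libraries had Thrsp high where fat cell genes were high, so their values by diet and their correlations are given below as a description, with no test.

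C57BL/6J mice with no labelled genetic change received an experimental diet with 0.6% Pi (normal Pi, n = 4) or 1.2% Pi (high Pi, n = 4), and cortex was taken on day 3. Each mouse gave 1 library of bulk mRNA, so all cell types left in the dissected piece contributed to each value. The labels give neither age nor sex for these mice, but the paper's methods describe age-matched males for its mouse experiments in general. Levels are FPKM, a fragment density scaled to transcript length and to the library's total, which can be compared between genes because they are per length. In bulk tissue fewer cells of a type and less RNA per cell cannot be told apart. Slc34a1, the phosphate cotransporter that defines the kidney's proximal tubule, was at 2764 to 4146 FPKM in the 8 libraries.

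Lipogenesis builds fatty acids from citrate. ATP citrate lyase (Acly) releases acetyl-CoA in the cytosol, acetyl-CoA carboxylase (Acaca) turns it into malonyl-CoA, fatty acid synthase (Fasn) assembles palmitate and Elovl6 lengthens it. Mlxipl, also called ChREBP, is a glucose-responsive transcription factor that switches on this set of enzymes in liver and fat, and Thrsp (Spot 14) is a small nuclear protein of lipogenic tissues, first known as a thyroid hormone-responsive gene in liver. Adipoq encodes the hormone adiponectin, Cfd the complement protease adipsin, Plin1 the protein coat of the fat cell's lipid droplet and Fabp4 a fatty acid carrier. The first 3 are largely restricted to adipocytes, whereas Fabp4 is also made by capillary endothelium and macrophages.

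To show the genes' upstream sequence, RefSeq promoter windows of 300 bases in GRCm38.p6, from 250 bases before the annotated start onward, were available for 9 of the 10 genes. Fabp4 was not matched. Those of Thrsp, Fasn and Adipoq are printed because their levels are the ones compared most closely below, and the upstream window of Mlxipl because its level took another course. Each runs 5′ to 3′, and capitals mark matches to the CCAAT box (CCAAT, or ATTGG on the other strand) and the E-box (CACGTG). The Thrsp window lies at chr7:97417501-97417800 on the minus strand, that of Fasn at chr11:120824498-120824797 on the minus strand, that of Adipoq at chr16:23146286-23146585 on the plus strand and that of Mlxipl at chr5:135089640-135089939 on the plus strand.
Thrsp: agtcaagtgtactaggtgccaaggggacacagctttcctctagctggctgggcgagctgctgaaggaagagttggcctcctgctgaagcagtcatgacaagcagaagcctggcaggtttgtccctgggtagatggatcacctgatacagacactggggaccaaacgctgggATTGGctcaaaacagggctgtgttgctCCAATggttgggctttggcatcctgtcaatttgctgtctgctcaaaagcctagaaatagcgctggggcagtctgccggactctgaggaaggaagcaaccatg
Fasn: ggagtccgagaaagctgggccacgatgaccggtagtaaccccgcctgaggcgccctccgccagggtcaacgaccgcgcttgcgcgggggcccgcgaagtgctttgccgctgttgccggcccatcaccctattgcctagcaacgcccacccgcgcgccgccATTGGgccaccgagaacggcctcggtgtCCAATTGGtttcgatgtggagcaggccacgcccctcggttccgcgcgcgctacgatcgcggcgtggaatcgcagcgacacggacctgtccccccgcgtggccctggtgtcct
Adipoq: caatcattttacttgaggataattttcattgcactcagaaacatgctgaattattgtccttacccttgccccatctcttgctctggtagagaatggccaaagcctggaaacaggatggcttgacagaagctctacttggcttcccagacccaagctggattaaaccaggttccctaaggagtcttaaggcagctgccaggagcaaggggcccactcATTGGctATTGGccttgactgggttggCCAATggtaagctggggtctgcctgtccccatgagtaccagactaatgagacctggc
Mlxipl: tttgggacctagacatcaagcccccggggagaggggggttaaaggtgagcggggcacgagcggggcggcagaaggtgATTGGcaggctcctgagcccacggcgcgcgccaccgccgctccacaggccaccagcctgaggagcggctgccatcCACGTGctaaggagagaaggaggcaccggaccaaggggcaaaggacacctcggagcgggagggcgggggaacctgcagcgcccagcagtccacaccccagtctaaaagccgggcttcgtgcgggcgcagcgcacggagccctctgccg

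Thrsp held CCAAT matches that began 79 and 52 bases before the start. Fasn held 3, at 90, 62 and 59 bases before it, of which the last 2 overlapped. Adipoq also held 3, at 34, 27 and 7 bases before its start. Mlxipl held 1 such match and the CACGTG element, 98 bases before the start. A CCAAT match was found in 37.4% of 32851 RefSeq promoter windows of this length, at least 2 were found in 11.7%, and CACGTG in 7.15%. TATAAA and the nuclear receptor half-site AGGTCA, each searched on both strands, were found in no window printed here and in 13.6% and 16.3% of all windows. The windows of Cfd, Plin1 and Acaca and the second one of Mlxipl held none of the 4 motifs. A match is a run of letters and was not tied to any factor.

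The adipocyte markers separated the libraries by mouse. Adipoq (chr16:23146536-23157968) was at 3.88, 0, 0 and 0 FPKM in normal Pi replicates 1 to 4 and at 0.13, 0, 6.49 and 15.83 FPKM in high Pi replicates 1 to 4. It was thus clearly measured in normal Pi replicate 1, high Pi replicate 3 and high Pi replicate 4, and near or at 0 in the other 5 libraries, and the diets overlapped. At the estimated depth, 1 fragment of Adipoq was worth 0.0591 to 0.0640 FPKM, so its level in high Pi replicate 1 came from about 2.13 fragments and that in high Pi replicate 4 from about 268.

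Cfd (chr10:79890853-79892655) followed the same order. It was at 35.72, 0.36, 0 and 0.27 FPKM on normal Pi and at 0.96, 0.72, 70.39 and 163.64 FPKM on high Pi. The same 3 mice held nearly all of the signal, and the highest, high Pi replicate 4, was the one with most Adipoq. Plin1 (chr7:79721164-79732904) was at 0.95, 0, 0 and 0 FPKM on normal Pi and at 0, 0.08, 1.33 and 2.88 FPKM on high Pi, again highest in those 3 mice. Because the ratio of Cfd to Adipoq was 9.21, 10.8 and 10.3 in normal Pi replicate 1, high Pi replicate 3 and high Pi replicate 4, the proportion of these transcripts stayed within a factor of 1.18 while Adipoq itself ranged from 3.88 to 15.83 FPKM. The ratio of Plin1 to Adipoq in these mice was 0.245, 0.205 and 0.182. Cfd had the most even ratio to Adipoq of the genes compared in this way. The factor was 1.22 for Slc7a10, 1.59 for Retn, 2.28 for Adig and 4.84 for Lep, and the last 2 rest on few fragments.

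Fabp4 (chr3:10204342-10208616) stood on a floor that the other markers lacked. It was at 61.01, 40.83, 33.91 and 33.92 FPKM on normal Pi and at 53.41, 42.81, 97.02 and 112.49 FPKM on high Pi. Its 3 highest libraries were the same 3 mice, but mice with no detected Adipoq still had at least 33.91 FPKM. The log2 fold change of Fabp4 was 0.77 ± 0.278 (SE) in all libraries and 0.40 ± 0.122 (SE) without these 3 mice. The fit without them was added after the values had been seen and is a description. The ratio of Fabp4 to Adipoq, 15.7, 14.9 and 7.11 in the 3 mice, was less even than that of Cfd. The summed level of 12 endothelial genes, a cell type that also makes Fabp4, was 309 to 365 FPKM on normal Pi and 356 to 431 FPKM on high Pi, highest in high Pi replicate 1. Its part in the Fabp4 values was not tested.

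**Figure D1:**
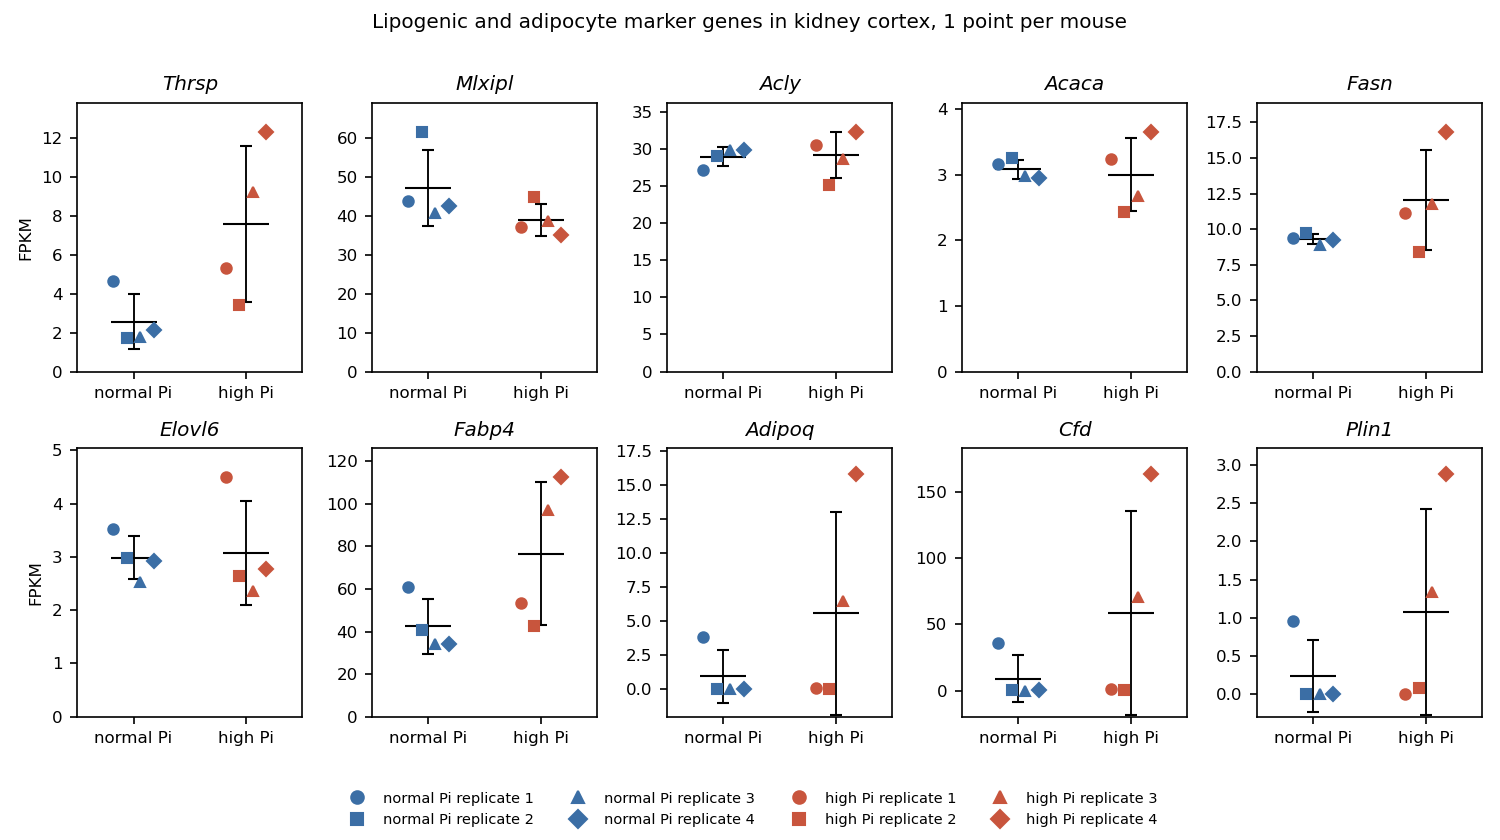
FPKM of the 10 genes, with 1 point per mouse, colour for the diet and marker shape for the replicate number, and black bars for the mean ± SD of the 4 mice. Adipoq, Cfd and Plin1 are near 0 in 5 mice and lie well above it in normal Pi replicate 1, high Pi replicate 3 and high Pi replicate 4, and all 10 genes overlap between diets.

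Other adipocyte genes, listed with earlier results of these libraries known, had the same 3 mice on top with 1 exception. Resistin (Retn), a hormone secreted by mouse adipocytes, was at 7.26, 0, 0 and 0 FPKM on normal Pi and at 0, 0.15, 17.59 and 26.95 FPKM on high Pi. Cidec, a lipid droplet fusion protein, was at 2.47, 0, 0.04 and 0.23 FPKM on normal Pi and at 0.17, 0.23, 4.17 and 13.20 FPKM on high Pi. The remaining defining genes were low throughout. Adig, a small protein of the fat cell membrane, reached 2.48 FPKM, the beta-3 adrenergic receptor Adrb3 1.33 FPKM, the amino acid transporter Slc7a10 0.70 FPKM, leptin (Lep) 0.19 FPKM, the droplet protein Plin4 1.52 FPKM and the glucose transporter regulator Trarg1 0.96 FPKM. All but Trarg1 had normal Pi replicate 1, high Pi replicate 3 and high Pi replicate 4 as their 3 highest libraries, and Trarg1 had high Pi replicates 4, 3 and 2. Of the 12 defining genes, none was at 0 in these 3 mice and 4 to 8 were at 0 in each of the other 5.

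Genes of brown fat did not put the same 3 mice on top throughout. Ucp1, the uncoupling protein that defines brown adipocytes, did not exceed 0.05 FPKM on normal Pi and was at 0.14 to 0.43 FPKM on high Pi, with high Pi replicates 1 and 2 at the top. Cidea, a droplet protein of brown fat, was at 0 to 0.07 FPKM on normal Pi and at 0.26 to 0.61 FPKM on high Pi. The diets did not overlap for either gene, but both lay near 0, were under the filter on low values and were not tested. Cox8b, a respiratory chain subunit of brown fat and muscle, was at 1.38, 0, 0.26 and 0 FPKM on normal Pi and at 0.54, 1.10, 3.47 and 3.88 FPKM on high Pi, with a log2 fold change of 1.14 ± 0.367 (SE, adjusted p = 0.287, limma-trend across all genes). On normal Pi only replicate 1 reached 0.5 FPKM, whereas every high Pi mouse did. Cox8b thus passed the filter through high Pi alone, and nothing is read from its fold change. The deiodinase Dio2 was at no more than 0.01 FPKM. Cox7a1, Fabp3 and Prdm16, which kidney also expresses, lay at 42.06 to 60.82, 116.95 to 177.64 and 1.70 to 2.44 FPKM, and none passed the test. Summed markers of adrenal cortex and skeletal muscle, other tissues that a cortex sample could carry, stayed at or under 0.40 and 0.25 FPKM.

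**Figure D2:**
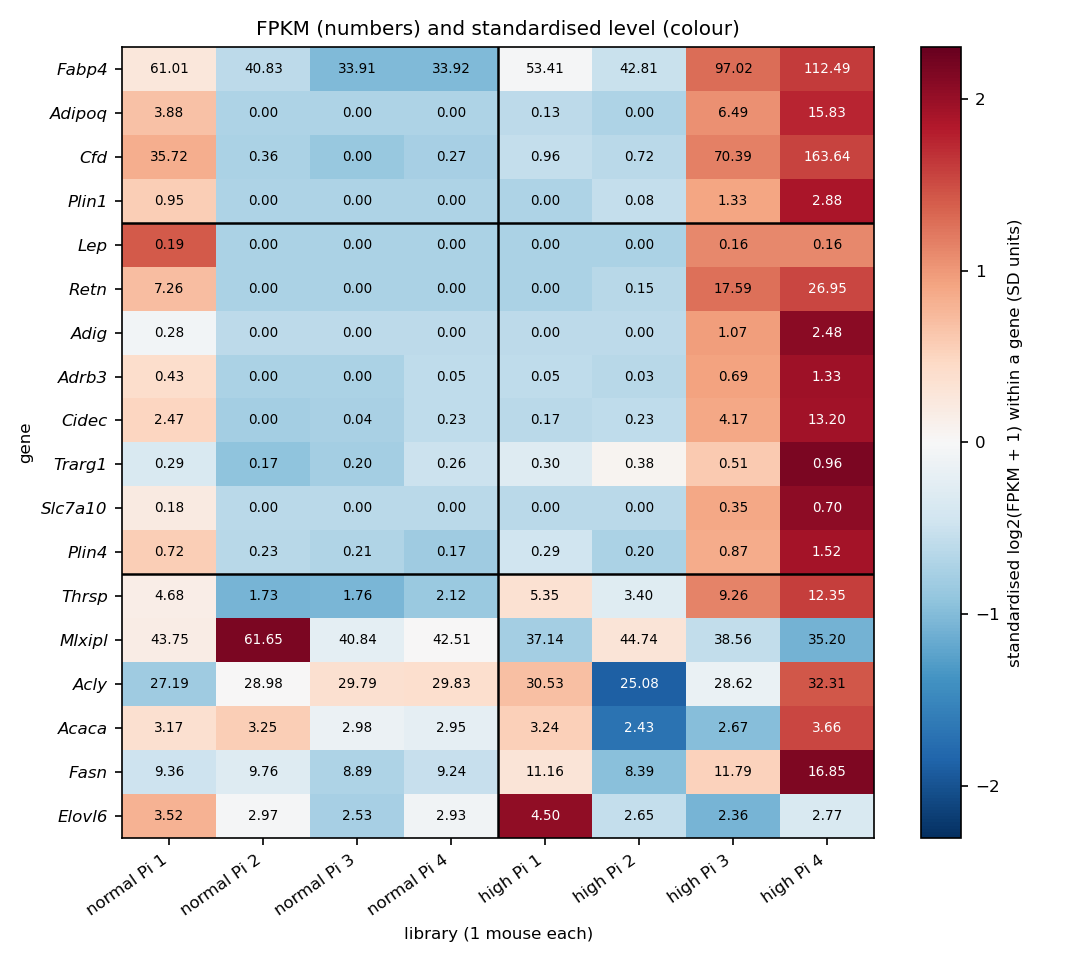
Rows are genes and columns the 8 libraries, 1 mouse each. The number in each cell is FPKM, and colour gives log2(FPKM + 1) standardised within the gene in SD units. The upper block holds the 4 marker genes, the middle block 8 further adipocyte genes and the lower block 6 lipogenesis genes, and red cells in the upper and middle blocks fall mainly in normal Pi 1, high Pi 3 and high Pi 4.

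Among the lipogenesis genes Thrsp differed most in level between mice. Thrsp (chr7:97412933-97417550) was at 4.68, 1.73, 1.76 and 2.12 FPKM in normal Pi replicates 1 to 4 and at 5.35, 3.40, 9.26 and 12.35 FPKM in high Pi replicates 1 to 4. The mean was 2.57 ± 1.42 FPKM on normal Pi and 7.59 ± 4.00 FPKM on high Pi (SD, n = 4 each), a ratio of means of 2.95. Normal Pi replicate 1, the normal Pi mouse with fat markers, lay above high Pi replicate 2, so the diets overlapped. On the log2(FPKM + 1) scale the difference was 1.21 ± 0.319 (SE), with a 95% interval of 0.51 to 1.91. Thrsp was read from about 26.9 to 206 fragments per library.

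Thrsp also differed among the mice with little Adipoq. Among the 5 libraries with Adipoq under 0.2 FPKM, Thrsp was at 1.73, 1.76 and 2.12 FPKM on normal Pi and at 5.35 and 3.40 FPKM on high Pi. The log2 fold change fitted on these 3 and 2 libraries was 0.88 ± 0.170 (SE). The markers were not absent from these high Pi mice. Cfd was at 0.36, 0 and 0.27 FPKM in the 3 normal Pi mice, from about 3.66, 0 and 2.83 fragments. In the 2 high Pi mice it was at 0.96 and 0.72 FPKM, from about 10.2 and 7.44 fragments. The log2 fold change of Cfd in the same fit was 0.61 ± 0.158 (SE). It rests on these few fragments and on a filter that Cfd passed through high Pi alone, so nothing is read from it. With the adipocyte marker level as a covariate in all 8 libraries the log2 fold change of Thrsp was 0.66 ± 0.129 (SE), which is less than the value of 1.21 without the covariate. Both fits were added after the values had been seen, and they describe the same libraries that Thrsp was chosen on. The split and the covariate also use the markers behind that choice, so neither fit tests a diet difference apart from fat. In the 3 mice with fat markers the ratio of Thrsp to Adipoq was 1.21, 1.43 and 0.780.

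The enzymes of fatty acid synthesis overlapped between the diets. Fasn (chr11:120805958-120825166) was at 9.36, 9.76, 8.89 and 9.24 FPKM on normal Pi and at 11.16, 8.39, 11.79 and 16.85 FPKM on high Pi. High Pi replicate 4 stood highest and high Pi replicate 2 lowest of all mice. The normal Pi mean was 9.31 ± 0.359 FPKM and the high Pi mean 12.05 ± 3.53 FPKM (SD, n = 4 each), and the log2 fold change was 0.30 ± 0.151 (SE). Without the 3 mice with fat markers it was 0.05 ± 0.131 (SE), and leaving out each mouse in turn gave 0.14 (without high Pi replicate 4) to 0.45 (without high Pi replicate 2). The fit without the 3 mice was added after the values had been seen and is a description.

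Acly (chr11:100476352-100528000), which supplies the acetyl-CoA, was at 27.19, 28.98, 29.79 and 29.83 FPKM on normal Pi and at 30.53, 25.08, 28.62 and 32.31 FPKM on high Pi. Acaca (chr11:84129635-84401651), the next enzyme, was at 3.17, 3.25, 2.98 and 2.95 FPKM on normal Pi and at 3.24, 2.43, 2.67 and 3.66 FPKM on high Pi. For both genes the normal Pi values lay within the range of the high Pi values. Their log2 fold changes were 0.00 ± 0.0807 and -0.04 ± 0.105 (SE), with 95% intervals of -0.17 to 0.18 for Acly and -0.27 to 0.19 for Acaca.

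Elovl6 (chr3:129532386-129638495), the elongase acting after Fasn, was at 3.52, 2.97, 2.53 and 2.93 FPKM on normal Pi and at 4.50, 2.65, 2.36 and 2.77 FPKM on high Pi. Its highest value was in high Pi replicate 1, a mouse with little Adipoq, and its lowest in high Pi replicate 3, a mouse with much. The log2 fold change was 0.01 ± 0.145 (SE).

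Mlxipl (chr5:135089890-135139768), the transcription factor, was the most abundant of the 6 in every mouse. It was at 43.75, 61.65, 40.84 and 42.51 FPKM on normal Pi and at 37.14, 44.74, 38.56 and 35.20 FPKM on high Pi. Normal Pi replicate 2 stood well above the other mice, and the diets overlapped through high Pi replicate 2. The log2 fold change was -0.26 ± 0.121 (SE), and without normal Pi replicate 2 it was -0.12. Over the 8 libraries, r between Mlxipl and Thrsp was -0.68 and rho -0.76.

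In the fit across 12383 tested genes, 37 passed an adjusted p of 0.05 (0.299% of genes). None of the 8 genes of the group that entered the fit passed, and 2, Thrsp and Fabp4, had an unadjusted p under 0.05, against 9.35% of all genes (4.55% with a positive and 4.8% with a negative difference). Adipoq and Plin1 were not tested because only 3 libraries reached 0.5 FPKM, and Cfd, which reached that level in all 4 high Pi mice but in 1 normal Pi mouse and so passed the filter through high Pi alone, had a log2 fold change of 2.32 ± 1.51 (SE). All 10 genes overlapped between the diets, whereas 5.02% of tested genes did not. Because the choice of the genes used this contrast, nothing is read from these counts.

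**Figure D3:**
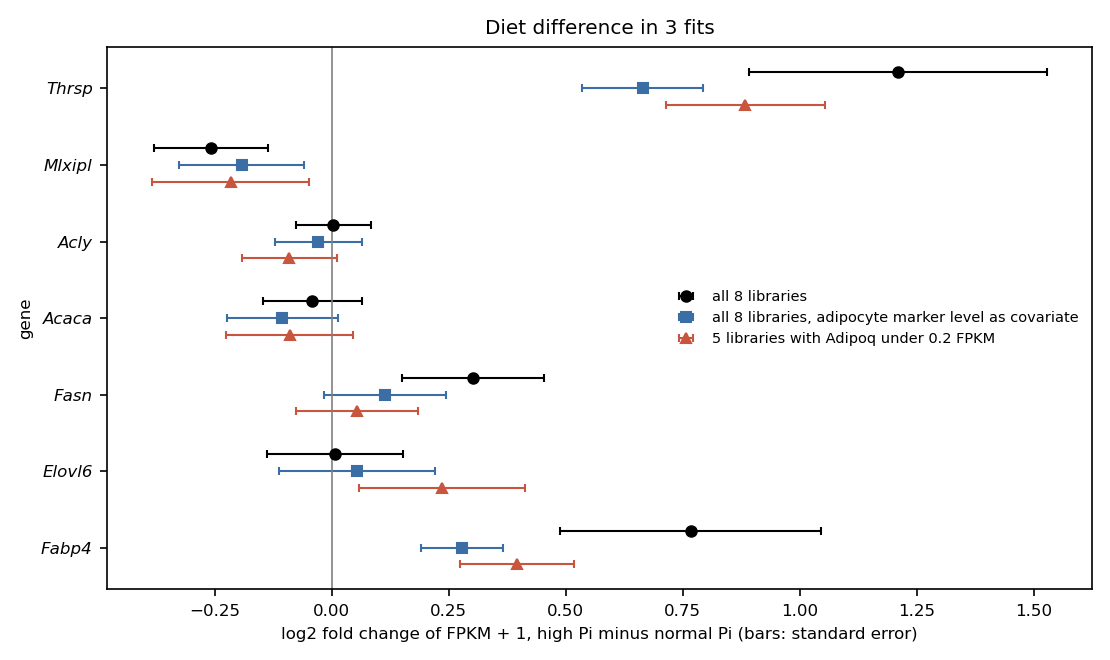
Log2 fold change of FPKM + 1, high Pi minus normal Pi, with its standard error, for 7 genes in 3 fits. The difference of Thrsp is 1.21 in all libraries, 0.66 with the adipocyte marker level as a covariate and 0.88 in the 5 libraries with Adipoq under 0.2 FPKM, while those of Acly and Acaca lie near 0 in each fit.

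The relation of each lipogenesis gene to the fat markers was described over the 8 libraries. The adipocyte marker level of a library was the mean standardised log2 level of Fabp4, Adipoq, Cfd and Plin1. It was 0.59, 1.10 and 1.70 in normal Pi replicate 1, high Pi replicate 3 and high Pi replicate 4 and between -0.83 and -0.47 in the others. As the libraries fell into these separate clusters, which share RNA, depth and tissue with the genes compared, and as the genes were chosen with this relation known, r and rho are descriptions with no p, and none is given within the clusters of 3 and 5 mice.

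For Thrsp, Pearson's r with the marker level was 0.92 and Spearman's rho 0.90 (n = 8). Without high Pi replicates 4 and 3, the libraries farthest from the median level, r was 0.66. With deviations from each diet mean r was 0.97, and leaving out each mouse in turn gave 0.85 to 0.97. Of the 12383 tested genes, 24 had an r at least as high (0.194%), among them Cfd and Fabp4, which are part of the marker level. From the 5th to the 95th percentile of all genes r ran from -0.66 to 0.65. As Thrsp was chosen with this relation known, its place among all genes is not read as a probability.

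Fasn was next, with r = 0.81 and rho = 0.76, but r was 0.10 without the 2 farthest libraries. Leaving out high Pi replicate 4 alone gave r = 0.58 for Fasn, and leaving out high Pi replicate 3 alone gave r = 0.82. The other 4 genes lay well inside the range of all genes. Acaca had r = 0.35 and rho = 0.26, Acly r = 0.28 and rho = 0.07, Elovl6 r = -0.18 and rho = 0.02, and Mlxipl r = -0.51 and rho = -0.50. Without the 2 farthest libraries these were 0.26, -0.34, 0.44 and -0.10. Acaca changed sign, to -0.16, without high Pi replicate 4 alone, and Acly changed to -0.20.

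**Figure D4:**
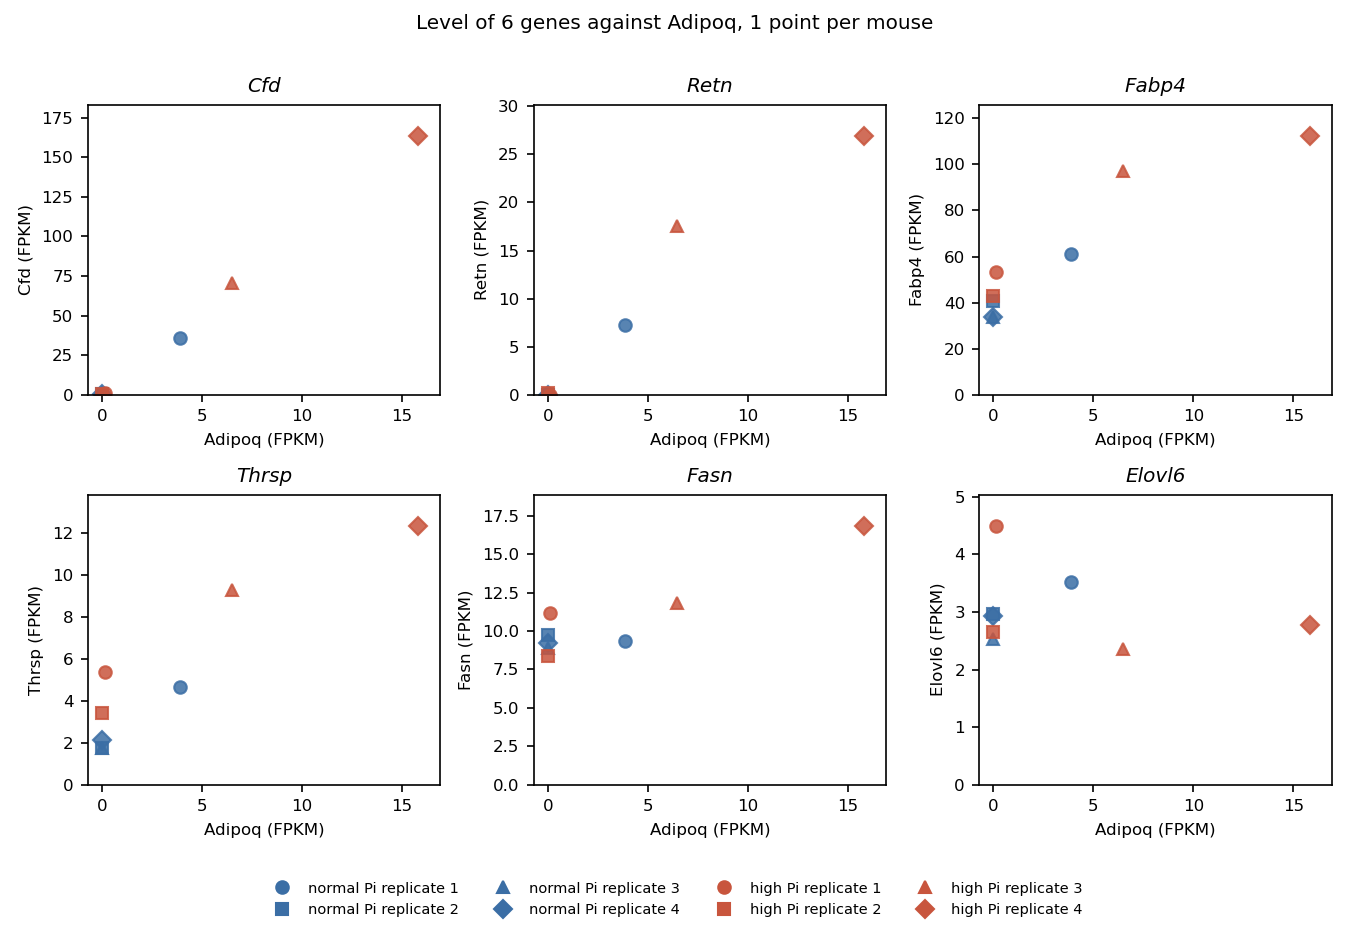
FPKM of 6 genes against FPKM of Adipoq, with 1 point per mouse. Cfd and Retn climb with Adipoq from near 0, Fabp4 and Thrsp climb from values above 0 in mice with no Adipoq, Fasn is set apart by high Pi replicate 4 at 16.85 FPKM, and Elovl6 is highest in high Pi replicate 1 at 4.50 FPKM.

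**Figure D5:**
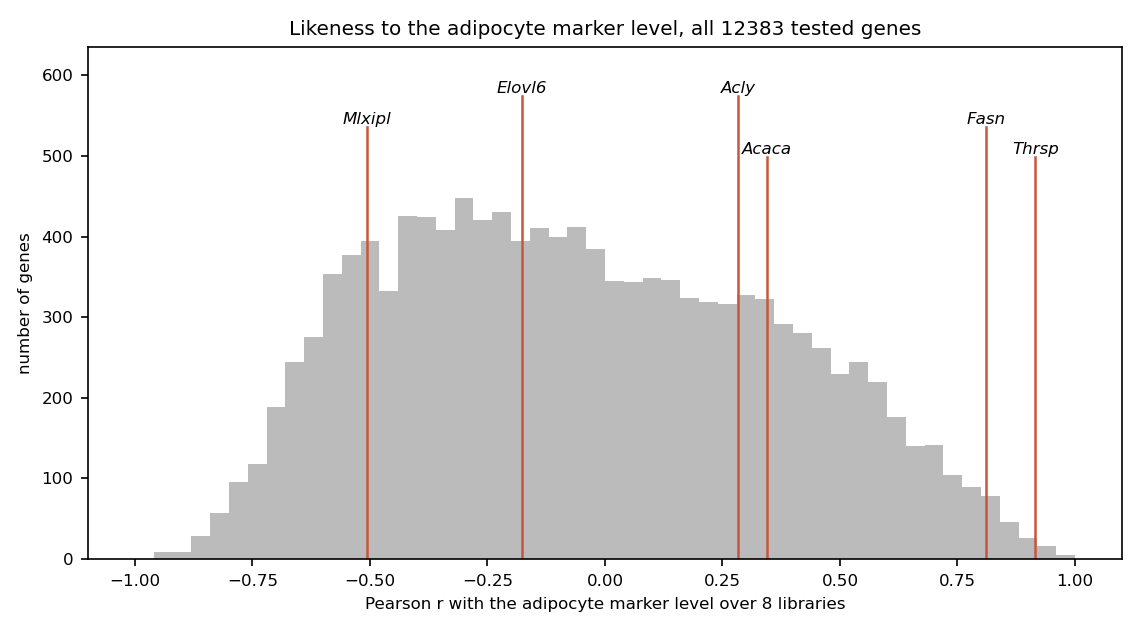
Histogram of Pearson r with the adipocyte marker level over 8 libraries for all 12383 tested genes, with lines at the 6 lipogenesis genes. Thrsp at 0.92 and Fasn at 0.81 lie in the upper tail, and Mlxipl at -0.51 lies in the lower part.

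The genes outside the chosen 10 whose pattern was most like the marker level, by Pearson r over the 8 libraries among tested genes with a mean of at least 1 FPKM, were Aoc3, Penk, Dpt, Smoc2, Erp29, Morn4, Ccdc80, Slc22a26, Ifi27l2a and Gstm4, with r from 0.94 to 0.97. Aoc3, a vascular and adipocyte amine oxidase, led these with 0.81 to 1.61 FPKM on normal Pi and 1.03 to 3.11 FPKM on high Pi. Dpt, Smoc2 and Ccdc80 encode extracellular matrix proteins and Penk the opioid precursor proenkephalin. Cfd and Fabp4, which are part of the marker level, had r = 0.99 and 0.97 with it. Of the chosen genes Fabp4 was most like Thrsp, with r = 0.97, and outside them the genes most like Thrsp included Ifi27l2a, Elp5, Parvb, Gsn, Proca1, Akr1c18, Sdhc, Erp29 and Tmem178, with r from 0.94 to 0.97. Ifi27l2a, an interferon-inducible gene, was at 13.97, 6.28, 6.32 and 9.44 FPKM on normal Pi and at 12.87, 9.82, 36.00 and 42.28 FPKM on high Pi. Gsn, the actin-severing protein gelsolin, was at 18.26 to 25.11 FPKM on normal Pi and 19.67 to 48.09 FPKM on high Pi. Ifi27l2a and Erp29 were in both lists.

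Beyond the 6 genes, 26 other genes of lipogenesis and its control were listed and 25 tested. None passed the threshold. The median log2 fold change was 0.03, beside -0.01 over all tested genes. Of the 25, 4 had an unadjusted p under 0.05, against 9.35% of all tested genes. Pklr, Agpat2 and Txnip were higher and Fads2 lower on high Pi. As the list was chosen with earlier results known, nothing is read from this count. Pklr, a pyruvate kinase that ChREBP controls in liver, was at 12.68, 11.41, 12.62 and 12.14 FPKM on normal Pi and at 18.02, 13.78, 14.63 and 15.08 FPKM on high Pi. All high Pi values lay above all normal Pi values, as did those of 2.41% of tested genes, and the log2 fold change was 0.30 ± 0.0866 (SE, adjusted p = 0.213, limma-trend). The paper's own test, made on counts, called a modest rise of Pklr significant, whereas the fit on FPKM used here did not.

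Agpat2, an acyltransferase of triglyceride synthesis that is also high in fat, was at 27.44, 30.95, 27.31 and 25.90 FPKM on normal Pi and at 28.92, 31.41, 39.95 and 37.76 FPKM on high Pi (log2 fold change 0.29 ± 0.101, SE, adjusted p = 0.333). Txnip, a glucose-induced target of ChREBP in liver, had means of 82.2 ± 5.03 and 104 ± 19.9 FPKM on normal and high Pi (SD, n = 4 each, log2 fold change 0.32 ± 0.118, SE, adjusted p = 0.375). Scd1, the desaturase that follows Fasn in many lipogenic cells, ranged from 9.73 to 20.95 FPKM on normal Pi and from 9.76 to 31.31 FPKM on high Pi, with its top value again in high Pi replicate 4. Srebf1, the insulin-responsive lipogenic transcription factor, was at 7.50 to 8.72 and 7.39 to 9.47 FPKM, so the diets overlapped.

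Thyroid hormone response genes were listed because Thrsp is one in liver. None of 5 tested genes passed and the median log2 fold change was -0.13. Thra, a thyroid hormone receptor, was at 22.72 to 26.38 FPKM on normal Pi and at 19.75 to 22.56 FPKM on high Pi, without overlap, as for 2.62% of tested genes in this direction (log2 fold change -0.19 ± 0.0729, SE, adjusted p = 0.407). Thrb, the other receptor, was at 2.74 to 3.80 and 2.02 to 3.81 FPKM, and the deiodinase Dio1, a hormone target in liver and kidney, at 24.96 to 34.63 and 17.00 to 34.42 FPKM. Their log2 fold changes were -0.13 (adjusted p = 0.843) and -0.13 (adjusted p = 0.913).

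Genes that adipocytes share with kidney cells were tested as 15 genes, of which none passed and 7 had an unadjusted p under 0.05, all with higher means on high Pi, beside 4.55% of all tested genes in that direction. The median log2 fold change was 0.22, and 13 of the 15 values were positive, beside 5656 of 12383 over all genes. Car3 and Slc2a4 were lower on high Pi (-0.76 ± 0.416 and -0.21 ± 0.109, SE). Car3 was at 88.57 to 122.93 FPKM on normal Pi and at 24.19, 37.76, 80.80 and 148.51 FPKM on high Pi. Itih5, a hyaluronan-binding secreted protein, was at 3.08, 2.98, 2.86 and 2.64 FPKM on normal Pi and at 3.92, 4.27, 3.74 and 4.29 FPKM on high Pi, without overlap (log2 fold change 0.38 ± 0.0834, SE, adjusted p = 0.109). Pnpla2, the triglyceride lipase of adipocytes and other cells, was at 68.32 to 71.86 FPKM on normal Pi and 77.57 to 90.97 FPKM on high Pi, also without overlap, beside the 2.41% of tested genes that lay wholly higher (log2 fold change 0.23 ± 0.0665, SE, adjusted p = 0.215). Pck1, the gluconeogenic enzyme of proximal tubule that also serves glycerol formation in fat, was at 537.79, 426.73, 527.18 and 449.34 FPKM on normal Pi and at 425.54, 1100.80, 1148.98 and 1417.42 FPKM on high Pi. Its lowest value was in high Pi replicate 1, and the other 3 high Pi mice lay above every normal Pi mouse (log2 fold change 0.95 ± 0.287, SE, adjusted p = 0.250).

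Without high Pi replicate 1, 423 of 12295 genes passed, against 37 with it, and 4 of these shared genes passed, Pck1 (log2 fold change 1.33), Cebpa (0.48) and Itih5 (0.39) higher and Slc2a4 (-0.33) lower, and Agpat2 passed among the lipogenesis genes (0.37). None of the 8 tested genes of the chosen 10 passed in any alternative, and Adipoq and Plin1, which entered only the fit without a filter, did not pass there. The root mean square log2 distance of high Pi replicate 1 to the mean of the other high Pi libraries was 0.299. Measured in the same way within its own diet, each of the rest was at 0.138 to 0.212. In high Pi replicate 1 Kap, a proximal tubule gene under androgen control, made up 8.47% of the summed FPKM, against 11.2% to 16.8% elsewhere.

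Markers of other cells had no gene past the threshold. Over all genes, 5656 of 12383 had a positive log2 fold change. As the lists were chosen with earlier results known, nothing is read from the counts of signs below. Of 9 fibroblast and fat stroma genes all 9 had positive log2 fold changes with a median of 0.32, and the matrix proteoglycan Dcn was at 10.80 to 14.43 FPKM on normal Pi and at 13.29 to 34.23 FPKM on high Pi, highest in high Pi replicates 3 and 4 (log2 fold change 0.66 ± 0.216, SE, adjusted p = 0.296). The summed list was at 41.9 to 51.1 FPKM on normal Pi and at 43.1 to 79.3 FPKM on high Pi. Of the endothelial genes 11 of 12 had positive log2 fold changes (median 0.15), led by Gpihbp1, the capillary anchor of lipoprotein lipase, at 0.34 (adjusted p = 0.268). The leukocyte sum was 32.5 to 42.4 FPKM on normal Pi and 36.0 to 64.6 FPKM on high Pi, with a median log2 fold change of 0.29 over 6 tested genes. Among 10 proximal tubule genes the median was -0.17, with the glucose cotransporter Slc5a2 at -0.49 (adjusted p = 0.0584) and Slc34a1 at -0.40 (adjusted p = 0.102). Distal nephron, podocyte and blood genes had medians of -0.09, -0.09 and 0.14. The part of these cell types in the values of Thrsp, Fasn and Fabp4 was not tested.

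At the transcript level Thrsp, Fasn, Elovl6 and Adipoq had a single listed transcript each. The 2 transcripts of Cfd kept similar shares in the 3 mice with fat markers, where the main one held 62.3%, 60.7% and 57.5% of the gene. For Acly the main transcript held 77.8% of the gene's mean level and for Fabp4 99.1%. Mlxipl was spread over 12 of 14 listed transcripts and Acaca over 5 of 7, so single transcripts of these genes are not described.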

How the data were processed

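Cortex mRNA of 8 mice was sequenced on the BGI DNBSEQ platform. Per the labels the authors used HISAT and Bowtie2 with the genome build GRCm38.p6, in tool versions not given in the sources used here. The deposited values are FPKM of genes and of transcripts. FPKM scale each library to its own total, so a few abundant genes can shift the rest. The study's own test used counts, which were not used here. Depth was estimated from the steps of low FPKM in single-transcript genes, with lengths shortened by 100 bases, at 13100000 to 14200000 fragments per library, and fragment numbers rest on that assumption. Each mouse is 1 library, and nothing in the labels says how cages or dissections were shared.

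The 12383 genes that reached 0.5 FPKM in 4 or more libraries were tested on log2(FPKM + 1) with limma-trend (limma 3.58.1, R 4.3.3), Benjamini-Hochberg adjustment and a threshold of 0.05. A pseudocount understates changes of low genes. The fit was tested on simulated data. Gene names and coordinates came from RefSeq, which matched 17346 gene IDs. Python 3.11.15 with pandas 2.3.3 served for the remaining values.

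The genes and all lists were chosen with earlier results of these data known. Of each list the text names genes past the threshold, otherwise up to 3 with the smallest unadjusted p and a mean of at least 1 FPKM, all other adipocyte and brown adipocyte genes, and the 10 genes most like the marker level and most like Thrsp, of which 1 is not reported here. Scd1, Srebf1, Dio1 and Car3, and genes that passed only without 1 mouse, were named after their values were seen. Distal nephron, podocyte and blood genes are given as medians. Alternatives were a pseudocount of 0.1, no filter, quantile and median-of-ratios scaling, the replicate block and leaving out each mouse. A covariate fit and a fit without the 3 mice with Adipoq were added after seeing the data.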

Additional observations from a re-analysis of the deposited data

Results flagged for a closer look

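In groups of 4 mice, 12 of 36 gene and diet groups held a mouse far from the other 3 of its diet by Dixon's gap test, where chance flags about 1 in 20 groups. Of these, 11 concerned the same mouse, normal Pi replicate 1, which lay far above the other normal Pi mice for Thrsp (4.68 FPKM), Adipoq (3.88 FPKM), Cfd (35.72 FPKM), Plin1 (0.95 FPKM), Lep (0.19 FPKM), Retn (7.26 FPKM), Adig (0.28 FPKM), Adrb3 (0.43 FPKM), Cidec (2.47 FPKM), Slc7a10 (0.18 FPKM) and Plin4 (0.72 FPKM). These 11 groups share 1 library and are not independent, the genes were chosen with these libraries' fat markers known, and for Adipoq, Plin1, Lep, Retn, Adig and Slc7a10 the other 3 values were all 0, which fixes the result, so the number is not read against chance. The other was Mlxipl at 61.65 FPKM in normal Pi replicate 2, a mouse in which Adipoq was at 0.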

How the results depend on the processing

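None of the 8 tested genes of the chosen 10 passed the threshold under any alternative, and Adipoq and Plin1, fitted only without the filter, did not pass there. Across all genes, 37 passed in the fit described, 8 without a filter on low values, 6 with the adipocyte marker level as a covariate and 8 in the 5 libraries with Adipoq under 0.2 FPKM, while leaving out each mouse in turn gave 4 to 423, with 423 only without high Pi replicate 1. With the replicate number as a block, 11 genes passed. The correlations of same-numbered mice were -0.21, -0.01, 0.06 and -0.12, and no same-numbered mice were each other's closest match across the diets. These values give no sign of pairing by number but cannot exclude it. The log2 fold change of Thrsp kept its sign and its side of the threshold in all 15 alternatives and ran from 0.66 to 1.49, with adjusted p from 0.0622 to 0.402. All of these fits reuse the libraries that Thrsp was chosen on. The covariate fit and that on the 5 libraries were added after the values had been seen. The range is therefore a description. Of 120 fold changes of the 8 tested genes, 9 changed sign. Acly went to -0.029 with the covariate and to -0.090 in the 5 libraries, and ran from -0.046 to 0.072 as each mouse was left out. Over the same omissions Acaca ran from -0.12 to 0.030 and Elovl6 from -0.15 to 0.091. Cfd went to -0.40 with the covariate, of which it is itself a part. Without the 2 farthest libraries the correlation with the marker level was 0.66 for Thrsp, -0.34 for Acly and 0.44 for Elovl6. Leaving out each mouse gave correlations of 0.85 to 0.97 for Thrsp, -0.20 to 0.40 for Acly and -0.16 to 0.64 for Acaca. In the lists, where 0 genes passed, leaving out each mouse gave 0 to 1 lipogenesis, brown adipocyte, endothelial and distal nephron genes, 0 to 4 shared adipocyte genes and 0 to 5 proximal tubule genes, in each case with the highest count without high Pi replicate 1. Median-of-ratios scaling gave 1 proximal tubule gene, and the 5 libraries gave 1 shared adipocyte gene, Car3 (log2 fold change -1.68). Low values of adipocyte genes rest on few fragments, such as about 0.914 for Cidec at 0.04 FPKM and 2.13 for Adipoq at 0.13 FPKM. Plin4 at 0.17 FPKM rests on about 13.1. A listed 0 does not show that a gene was absent. The causes of these shifts were not tested.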
